A study of Homo sapiens with 12 samples.

Results

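The response of mantle cell lymphoma (MCL) cells to an siRNA against the transcription factor SOX11 was followed outside the 26 genes that the study itself tabulated as reduced. All probe sets of a whole-transcript expression array were kept except those 26, which were removed by probe set ID, so that 33271 of 33297 probe sets remained. Of these, 19441 listed 1 gene symbol (18398 genes), 1749 listed several and 12081 listed none in the annotation used. The 26 removed genes had been picked on these same arrays, so the deepest falls were largely absent from what remained by construction.

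All RNA came from Granta 519, an established MCL line that expresses SOX11. The groups were 4 arrays of cells given SOX11 siRNA, 4 arrays of cells given a non-targeting control siRNA and 4 arrays of untreated cells. Per transfection, 100 pmol of siRNA was electroporated into 4000000 cells, and RNA was harvested after 20 hours. The extracts came from individual experiments in 1 cell line. Unless a setting says otherwise, the fits pooled the spread over all 3 groups, untreated cells included. Every p-value below therefore measures the spread between such cultures and not between tumours. Control siRNA and untreated cells differ by electroporation and siRNA together, and the labels do not say which SOX11 siRNA sequence was used. Effects of the SOX11 siRNA on transcripts other than its target cannot be told apart from loss of SOX11 with these groups.

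SOX11 belongs, with SOX4 and SOX12, to the SOXC group of factors that bind DNA through a high mobility group (HMG) box and bend it. It acts during development of the nervous system, is absent from normal mature lymphocytes and is switched on in most MCL. An siRNA cuts the mRNA it matches, after which transcripts that depend on the lost protein decline, whether the factor bound their genes or acted through others. In neural and mesenchymal progenitor cells TEAD2 has been described as a direct target. The tubulin gene TUBB3 has been described as another in neural cells. By RT-PCR the study found TUBB3 mRNA reduced after SOX11 siRNA in the cell line used here. TUBB3 is not among the removed genes.

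SOX11 mRNA itself had signals of 227, 229, 188 and 225 on the 4 SOX11 siRNA arrays, 1096, 1191, 1112 and 1026 with control siRNA and 1028, 978, 978 and 1041 in untreated cells. No SOX11 siRNA array came near any other array, a fall of 80.4% of the linear mean (log2 fold change -2.27, standard error 0.0893, limma adjusted p = 1.7e-09). SOX4 and SOX12 were not called (log2 fold change -0.10, standard error 0.0913, limma adjusted p = 1 for SOX4, and log2 fold change 0.06, standard error 0.11, limma adjusted p = 1 for SOX12). Array medians spanned 69.2 to 91.8, both ends of the range set by SOX11 siRNA arrays (replicate 3 lowest, replicate 4 highest), and 73 to 144 probe sets per array were listed at 0. The B cell genes MS4A1 (4143 to 5071), CD79A (1246 to 1724) and PAX5 (583 to 939) were bright on every array, and all 7 measured B lineage markers had a median over the arrays of at least 423. Markers of other cells were mixed. CD3D, LYZ, EPCAM and HBB, markers of T cells, myeloid cells, epithelium and red cells, stayed between 9.09 and 38.1, but 4 of 16 T and NK cell, 4 of 13 myeloid, 3 of 9 epithelial, 3 of 13 fibroblast and endothelial and 0 of 6 erythroid and platelet markers had a median over 100. The brightest of these were CDH5 (463 to 617), LCK (300.0 to 446), FCN1 (249 to 436) and KRT8 (190.0 to 319), and the dimmest B lineage marker was POU2AF1 (310.0 to 513). The part of other cells in the results was not tested. The signal is linear and in arbitrary units, and fold changes were taken as log2(signal + 16), a scale that makes those of dim genes smaller.

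Outside the 26 genes calls were few, their changes were small, and on the deposited values nearly all of them were falls. At an adjusted p under 0.05, limma called 35 probe sets (0.105% of 33271) for SOX11 siRNA against control siRNA, of which 34 were lower and 1 was higher. On the whole array, the 26 genes included, 61 of 33297 probe sets were called (0.183%), 60 of them lower (0.18%) and 1 higher (0.003%). A fall of at least 1.5-fold was seen for 24 of the called probe sets outside the 26 genes (48 of the whole array, 0.144%), and a rise of that size for 0. At an unadjusted p under 0.05, limma counted 895 lower and 497 higher probe sets outside the 26 genes, against 2.77% and 1.49% of the whole array, and with at least 1.5-fold 76 lower and 4 higher (0.3% and 0.012% of the whole array). The called falls ran from -1.01 to -0.43 on the log2 scale with a median of -0.63, where the 26 removed genes ran from -2.27 to -0.57 with a median of -0.78. At the study's own threshold, an FDR of 0.002 with 1.5-fold, 0 probe sets outside the 26 genes passed in limma (6 with quantile normalization). The smallest adjusted p among them in limma on the deposited values was 0.00333. The study had set that threshold on values scaled by Robust Multiarray Analysis (RMA) and on another test, so these counts are not a repeat of its analysis. For 34 of the 34 lower calls each SOX11 siRNA array lay below each control siRNA array. Such a separation was found for 425 probe sets downward and 200 upward outside the 26 genes, against 451 (1.35%) and 200 (0.601%) on the whole array.

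The number of calls rose with quantile normalization, which forces the 12 arrays onto 1 distribution. Then limma called 199 probe sets outside the 26 genes (174 lower, 25 higher), against 225 (0.676%) on the whole array, 200 (0.601%) lower and 25 (0.0751%) higher. At an unadjusted p under 0.05 it counted 1401 lower and 1255 higher outside the 26 genes, against 4.29% and 3.77% of the whole array. The siRNA groups separated completely for 939 probe sets downward and 856 upward, against 2.9% and 2.57% of the whole array. The called falls ran from -0.98 to -0.25 with a median of -0.43, and the called rises from 0.28 to 0.56 with a median of 0.38. Of the 35 calls on the deposited values 34 were also called here, which is 97.1% of the 35 and 17.1% of the 199. The exception was B3GNT5, at an adjusted p of 0.0739 in limma. Most added calls were in probe sets of the upper signal classes. Among 4 equal classes by mean signal, ordered from dim to bright, the lower calls numbered 0, 10, 21 and 3 on the deposited values and 2, 19, 78 and 75 with quantile normalization. The median standard error in the brightest class was 0.106 on the deposited values and 0.0717 with quantile normalization.

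**Figure D1:**
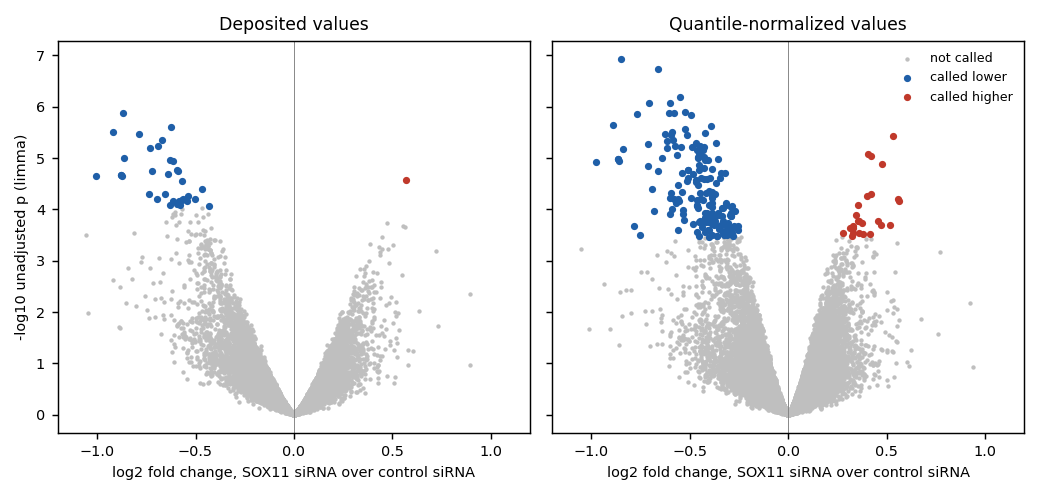
Each point is 1 probe set outside the 26 genes, with the log2 fold change of SOX11 siRNA over control siRNA on the x axis and -log10 of the unadjusted limma p on the y axis, for the deposited values (left) and after quantile normalization (right). Blue points were called lower (34 on the left, 174 on the right), red points higher (1 and 25) at an adjusted p under 0.05.

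The 35 calls on the deposited values held 28 probe sets with 1 symbol, for 26 genes, all of them lower. Another 6 listed no symbol and 1 listed both P2RX5-TAX1BP3 and TAX1BP3. They are taken below by what their products are known to do: regulators of transcription and chromatin, metabolic enzymes, proteins of cilia and organelle contacts, the cell surface, signalling, and zinc finger proteins.

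TEAD2 encodes a TEA-domain factor through which the coactivators YAP and TAZ of the Hippo pathway reach DNA. Its signal was 98.2, 102, 66.7 and 93.8 with SOX11 siRNA, 146, 168, 153 and 167 with control siRNA and 159, 172, 172 and 178 in untreated cells. All 4 SOX11 siRNA arrays lay below the other 8, replicate 3 lowest, and TEAD2 fell by 43.2% of the linear mean (log2 fold change -0.73, standard error 0.109, limma adjusted p = 0.00812). Its call was lost in 1 of 12 fits without 1 array, that without control siRNA replicate 2 (limma adjusted p = 0.0502). None of its paralogs was called: TEAD4 had 126 ± 7.67 with SOX11 siRNA and 126 ± 10.7 with control siRNA (SD, n = 4 each), TEAD1 had 29.6 ± 5.23 with SOX11 siRNA and 32.3 ± 7.68 with control siRNA (SD, n = 4 each) and TEAD3 had 111 ± 36.2 with SOX11 siRNA and 115 ± 15.9 with control siRNA (SD, n = 4 each), each with a limma adjusted p of 1. Of 25 measured TEAD factors and Hippo pathway genes, 1 was called lower (TEAD2) and 0 higher on the deposited values, with 4 lower and 0 higher at an unadjusted p under 0.05 in limma. Over all 18398 genes outside the 26, limma called 26 lower (0.141%) and 0 higher, with 475 lower (2.58%) and 321 higher (1.74%) at an unadjusted p under 0.05, and with quantile normalization 147 lower (0.799%) and 18 higher (0.0978%), when each gene is read by 1 probe set. With quantile normalization NF2, the pathway's upstream activator merlin, and AMOTL1, an angiomotin that holds YAP in the cytoplasm, were called lower as well (log2 fold changes -0.39 and -0.46). The median log2 fold change of the list was 0.00846 on the deposited values, against 0.0144 over all 18398 genes.

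The 300 bases around the start of TEAD2 hold the core motif that HMG-box factors of the SOX family bind. The window runs from 250 bases before to 50 bases after the start in the RefSeq table of GRCh38.p14. The motif was searched as ACAAAG or ACAATG on both strands, and it stands in capitals (ACAAAG, or CATTGT where ACAATG lies on the other strand). TEAD2, BDH2, ZC4H2 and DDAH2 are shown as examples of the called genes that hold it. They are not the 4 with the smallest p: ZNF730, which also holds it, had a smaller adjusted p in limma than TEAD2 and DDAH2.
TEAD2, chr19:49362367-49362666, minus strand: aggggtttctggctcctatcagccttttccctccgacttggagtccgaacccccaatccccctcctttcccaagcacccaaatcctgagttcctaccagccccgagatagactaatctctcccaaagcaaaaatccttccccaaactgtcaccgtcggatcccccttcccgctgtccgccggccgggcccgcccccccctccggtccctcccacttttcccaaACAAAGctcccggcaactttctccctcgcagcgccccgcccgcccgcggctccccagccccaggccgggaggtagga
BDH2, chr4:103099785-103100084, minus strand: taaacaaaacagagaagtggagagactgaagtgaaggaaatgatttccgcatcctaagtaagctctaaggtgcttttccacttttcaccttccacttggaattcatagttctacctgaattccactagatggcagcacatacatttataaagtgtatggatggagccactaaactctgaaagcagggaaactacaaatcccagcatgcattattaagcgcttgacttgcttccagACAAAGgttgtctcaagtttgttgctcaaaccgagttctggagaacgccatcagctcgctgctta
ZC4H2, chrX:64976401-64976700, minus strand: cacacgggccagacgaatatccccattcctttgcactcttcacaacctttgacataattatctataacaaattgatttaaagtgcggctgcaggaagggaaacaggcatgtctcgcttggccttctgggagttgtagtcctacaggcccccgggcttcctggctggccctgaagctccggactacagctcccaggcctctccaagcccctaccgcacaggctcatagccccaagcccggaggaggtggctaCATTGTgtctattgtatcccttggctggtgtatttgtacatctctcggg
DDAH2, chr6:31730214-31730513, minus strand: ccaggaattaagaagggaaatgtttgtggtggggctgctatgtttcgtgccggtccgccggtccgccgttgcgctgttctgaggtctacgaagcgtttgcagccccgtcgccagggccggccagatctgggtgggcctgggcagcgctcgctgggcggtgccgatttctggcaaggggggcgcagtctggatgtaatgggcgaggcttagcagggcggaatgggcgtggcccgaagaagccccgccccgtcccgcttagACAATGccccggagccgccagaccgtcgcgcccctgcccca
In each of the 4 windows the search found 1 motif. A match to 6 letters is a description of the sequence and not a measured binding site.

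Among the 26 genes, 20 had a promoter in the table and 9 of these (45%) held at least 1 motif: BDH2, DDAH2, FKBP7, GAPT, TEAD2, ZC4H2, ZNF443, ZNF730 and, with 2 copies, ZSCAN2. Of all genes of the array outside the 26 removed ones, 2695 of 14226 promoters (18.9%) held it, and 24.5% of all 35116 tabulated promoters did. The genes called lower with quantile normalization held it in 46 of 123 promoters (37.4%) and those called higher in 0 of 12. Read the other way, 0.334% of genes with the motif and 0.0954% of those without were called lower on the deposited values, and 1.71% against 0.659% with quantile normalization. Promoters with the motif also had less GC (median 56%, against 64.7% without it), and their genes were dimmer with control siRNA (median signal 90.1, against 160 without it). The promoters of genes called lower had a median GC of 63.0% on the deposited values and 66.3% with quantile normalization, against 63.0% for all genes of the array. The part of signal level in these shares was not tested.

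Further regulators of transcription and chromatin fell by similar amounts. AUTS2, a nuclear protein that joins Polycomb complexes and is known for its role in brain development, had signals of 121, 134, 108 and 146 with SOX11 siRNA and 202, 209.7, 194 and 192 with control siRNA (log2 fold change -0.59, standard error 0.0967, limma adjusted p = 0.0161). CBX2, the Polycomb subunit that reads methylated histone H3, had 135, 112, 98.7 and 114 with SOX11 siRNA and 186, 185, 166 and 158 with control siRNA (log2 fold change -0.54, standard error 0.0977, limma adjusted p = 0.0367). The groups did not overlap for either gene. The call of AUTS2 held in 8 of 12 fits without 1 array and that of CBX2 in 2. BCL6, the repressor that defines germinal centre B cells, was dim at 54.8, 56.6, 46.8 and 51.6 with SOX11 siRNA, 74.8, 75, 79.2 and 75.8 with control siRNA and 66.7, 64.9, 66.6 and 73.2 in untreated cells (log2 fold change -0.43, standard error 0.0821, limma adjusted p = 0.0477). It stood at the edge of the threshold, was not called against untreated cells (log2 fold change -0.29) and was not called in any of the 12 fits without 1 array. ZC4H2, a zinc finger protein needed for neuron development, was among the most stable calls. It had 106, 77.4, 68.1 and 75.9 with SOX11 siRNA, 158, 167, 148 and 133 with control siRNA and 158, 152, 151 and 165 in untreated cells (log2 fold change -0.79, standard error 0.112, limma adjusted p = 0.00533), and was called in 12 of 12 fits without 1 array.

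Metabolic enzymes gave some of the deepest falls. BDH2 is a cytosolic hydroxybutyrate dehydrogenase with roles in ketone body and iron metabolism. Its signal was 47.4, 37.8, 28.8 and 54.3 with SOX11 siRNA, 81.4, 105, 94.9 and 88.6 with control siRNA and 100.1, 95.1, 121 and 107 in untreated cells. The groups given siRNA were far apart, with a fall of 54.5% of the linear mean (log2 fold change -0.92, standard error 0.129, limma adjusted p = 0.00533), and BDH2 was called in 12 of 12 fits without 1 array. Its mitochondrial relative BDH1 had 94 ± 17.6 with SOX11 siRNA and 92.9 ± 11.6 with control siRNA (SD, n = 4 each) (log2 fold change 0.01, standard error 0.116, limma adjusted p = 1). Of 20 measured genes of ketone body and fatty acid oxidation, 1 was called lower (BDH2) and 0 higher on the deposited values, with 2 lower and 1 higher at an unadjusted p under 0.05. With quantile normalization ACAA2, a thiolase of fatty acid oxidation, was also called lower (log2 fold change -0.30), and CPT1A, which admits fatty acids to the mitochondrion, was not called (log2 fold change 0.27, standard error 0.0974, limma adjusted p = 0.885). The call of ACAA2 held in 2 of 12 fits without 1 array under quantile normalization.

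DDAH2, named for the hydrolysis of methylated arginine that inhibits nitric oxide synthases, was read by 3 probe sets with nearly the same values. They may share probes and count as 1 gene. The brightest gave 156, 116, 97.9 and 118 with SOX11 siRNA, 284, 261, 215 and 189 with control siRNA and 261, 249.5, 194 and 198 in untreated cells. SOX11 siRNA replicate 1 was the highest of its group and still below all control siRNA arrays (log2 fold change -0.88, standard error 0.146, limma adjusted p = 0.0173). The call was lost without SOX11 siRNA replicate 2 or 3 or control siRNA replicate 1 or 2, with an adjusted p of up to 0.101 in limma. Its paralog DDAH1 had 478 ± 16.3 with SOX11 siRNA and 477 ± 57 with control siRNA (SD, n = 4 each) (log2 fold change 0.01, standard error 0.0929, limma adjusted p = 1), and of 21 measured genes of arginine, methylarginine and nitric oxide metabolism DDAH2 was called lower and 0 higher, with 1 lower and 0 higher at an unadjusted p under 0.05 in limma. B3GNT5, the glycosyltransferase that starts the lacto-series of glycolipids, had 34.8, 33.3, 34.8 and 30.9 with SOX11 siRNA, 59.6, 67.2, 74.7 and 48 with control siRNA and 43.6, 47.6, 65 and 53.8 in untreated cells (log2 fold change -0.65, standard error 0.118, limma adjusted p = 0.0342). Untreated cells overlapped control siRNA for it, and with quantile normalization its adjusted p was 0.0739.

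TMEM237, a membrane protein of the transition zone at the base of the primary cilium, had the smallest adjusted p outside the 26 genes. Its signal was 137, 118, 95.1 and 133 with SOX11 siRNA, 208, 268, 235 and 218 with control siRNA and 232, 207, 248 and 244 in untreated cells, a fall of 48.1% (log2 fold change -0.87, standard error 0.114, limma adjusted p = 0.00333). Control siRNA and untreated cells overlapped, and both lay above every SOX11 siRNA array. RMDN3, which tethers the endoplasmic reticulum to mitochondria, had 214, 166, 156 and 189.5 with SOX11 siRNA and 306, 273, 295 and 242 with control siRNA (log2 fold change -0.58, standard error 0.109, limma adjusted p = 0.0409), and FKBP7, a peptidyl-prolyl isomerase of the endoplasmic reticulum, had 86.9, 67, 56.6 and 68.5 with SOX11 siRNA and 117, 133, 115 and 105 with control siRNA (log2 fold change -0.64, standard error 0.107, limma adjusted p = 0.0173). FKBP7 held its call in 7 of 12 fits without 1 array and RMDN3 in 2.

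Proteins of the cell surface and its scaffolds formed another group. DLG3 encodes a synaptic scaffold of the membrane-associated guanylate kinase family. It had 156, 142, 121 and 152 with SOX11 siRNA, 232, 263, 216 and 231 with control siRNA and 303, 293, 273 and 315 in untreated cells (log2 fold change -0.67, standard error 0.0972, limma adjusted p = 0.00637), so that untreated cells were the highest of the 3 groups. JUP, the junction protein plakoglobin, had 102, 101, 81.9 and 132 with SOX11 siRNA and 161, 172, 159.7 and 161 with control siRNA (log2 fold change -0.60, standard error 0.112, limma adjusted p = 0.0449). F2R, the thrombin receptor, had 76.8, 76.6, 75.8 and 107 with SOX11 siRNA, where replicate 4 stood apart, and 126, 141, 131 and 131 with control siRNA (log2 fold change -0.58, standard error 0.109, limma adjusted p = 0.0456). GAPT, a transmembrane adaptor of B cells that binds GRB2, had 157, 162, 144 and 178 with SOX11 siRNA and 223, 275, 220.1 and 248 with control siRNA (log2 fold change -0.55, standard error 0.101, limma adjusted p = 0.0409). JUP, F2R and GAPT were each called in 1 of 12 fits without 1 array. SLCO5A1, of the organic anion transporter family, and NNAT, the imprinted membrane proteolipid neuronatin, fell by log2 fold changes of -0.57 and -0.70 (limma adjusted p = 0.0206 and 0.04).

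Signalling genes completed the list. PIK3R3, a regulatory subunit of phosphoinositide 3-kinase, was the brightest named gene called, at 390.5, 382, 329.5 and 408 with SOX11 siRNA and 531, 582, 539.9 and 512 with control siRNA (log2 fold change -0.50, standard error 0.0929, limma adjusted p = 0.04). PKIA, the inhibitor of cyclic AMP-dependent protein kinase, had 89.1, 76.6, 72.8 and 67.1 with SOX11 siRNA and 134, 124, 125 and 107 with control siRNA (log2 fold change -0.59, standard error 0.0961, limma adjusted p = 0.0161). SESTD1, a phospholipid-binding protein with a SEC14 domain, had 43.8, 43, 31.4 and 47.1 with SOX11 siRNA, 69.1, 75.5, 67 and 74.3 with control siRNA and 85.7, 85.6, 87.9 and 78.6 in untreated cells (log2 fold change -0.62, standard error 0.0971, limma adjusted p = 0.0119), and its call was lost only without control siRNA replicate 2 among the 12 fits without 1 array (limma adjusted p = 0.0625). FGD6, an exchange factor for the small GTPase CDC42, differed from the rest. It was dim, at 17.9, 26.4, 13 and 19 with SOX11 siRNA, 35.9, 44.7, 35.5 and 35.7 with control siRNA and 24.4, 33.1, 25.4 and 21.7 in untreated cells (log2 fold change -0.63, standard error 0.119, limma adjusted p = 0.0463), and it was the only 1 of the 26 genes whose untreated mean lay nearer to SOX11 siRNA than to control siRNA.

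**Figure D2:**
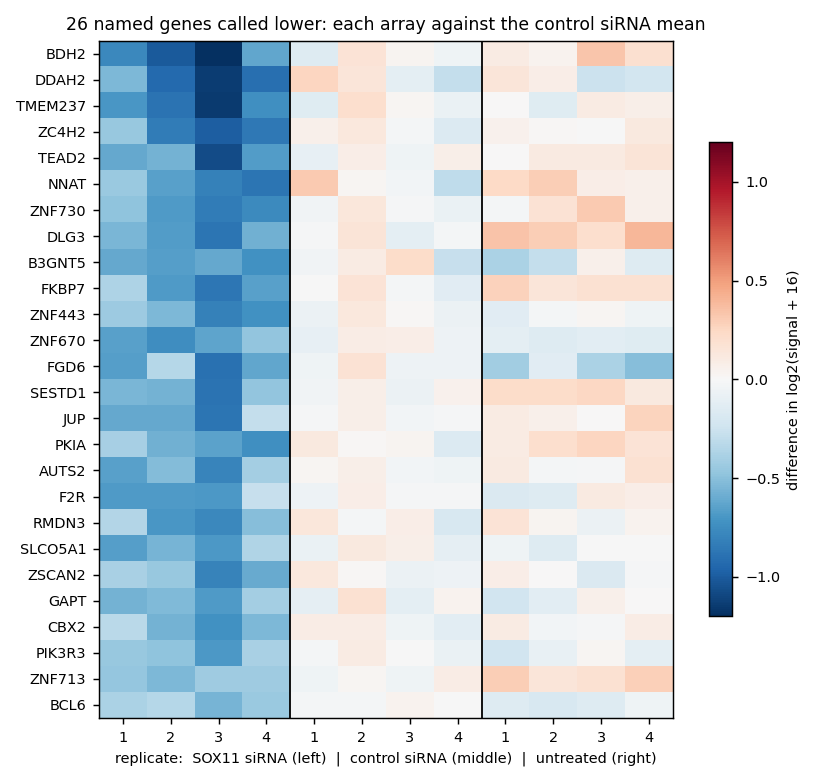
Each row is 1 of the 26 named genes called lower, each column 1 of the 12 arrays, and the colour gives log2(signal + 16) minus the mean of the 4 control siRNA arrays (blue below it, red above it). The SOX11 siRNA block on the left is blue in every row. Rows whose 4 untreated arrays (right) all lie below the control siRNA mean include FGD6, BCL6 and ZNF670. Rows where all 4 lie above it include DLG3, SESTD1 and BDH2.

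The untreated cells gave a second set of values for the same genes, although the comparison shares its SOX11 siRNA arrays with the one above. Of the 26 genes 23 were also called lower with SOX11 siRNA than in untreated cells, where 506 probe sets outside the 26 removed genes were called lower and 268 higher (532, 1.6%, and 268, 0.805%, of the whole array). The exceptions were BCL6, B3GNT5 and FGD6. The log2 fold changes over untreated cells ran from -1.09 (BDH2) to -0.27 (FGD6). For 25 of the 26 genes each SOX11 siRNA array lay below each untreated array. Between control siRNA and untreated cells these genes differed by -0.31 (DLG3) to 0.36 (FGD6) on the log2 scale, with 0 called and 3 at an unadjusted p under 0.05 in limma on the deposited values, while 72 probe sets of the whole array were called lower (0.216%) and 57 higher (0.171%) in that comparison. With quantile normalization 1 of the 26 genes, DLG3, was called lower with control siRNA than in untreated cells (log2 fold change -0.28, limma adjusted p = 0.0448).

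The stability of the calls differed between genes. BDH2, DLG3, TMEM237, ZC4H2, ZNF670 and ZNF730 were called in each of the 12 fits without 1 array, and 18 of the 35 probe sets were called in at most 6 of the 12. Without control siRNA replicate 2 the number of calls was 8, without control siRNA replicate 1 it was 9, and without SOX11 siRNA replicate 4 it was 44. In an analysis of variance of the deposited values over the siRNA groups alone, 0 probe sets outside the 26 genes passed. It counted 619 lower and 402 higher at an unadjusted p under 0.05. The study ran its analysis of variance on RMA values, which were not used here.

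**Figure D3:**
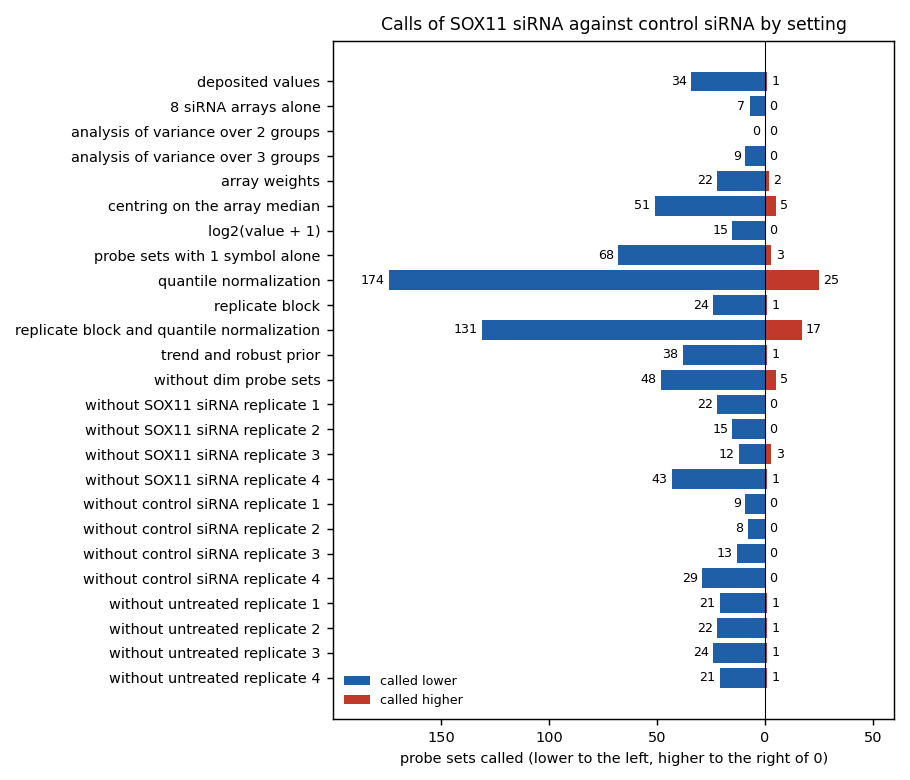
Bars give the number of probe sets outside the 26 genes called lower (blue, to the left) and higher (red, to the right) with SOX11 siRNA under each setting, at an adjusted p under 0.05. Lower calls outnumbered higher ones in every setting with a call, from 7 lower and 0 higher in a fit of the 8 siRNA arrays to 174 lower and 25 higher with quantile normalization.

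The zinc finger genes whose symbols start with ZNF encode mostly C2H2 zinc finger proteins, many of which carry a KRAB domain and silence transposable elements and other loci. The choice of this family followed from the values themselves, so its counts are a description. Of 510 probe sets for 494 genes, 4 were called lower on the deposited values (0.784%), against 0.102% of all probe sets outside the 26 genes and 0.157% of those of protein-coding genes. With quantile normalization 18 were called lower (3.53%), against 0.523% of all and 0.832% of protein-coding probe sets. None was called higher with either. At an unadjusted p under 0.05 on the deposited values limma counted 62 lower (12.2%) and 1 higher (0.196%), against 2.69% and 1.49% of all probe sets. With quantile normalization it counted 82 lower (16.1%) and 8 higher (1.57%), against 4.21% and 3.77% of all and 4.81% and 4.93% of protein-coding probe sets.

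ZNF670 was the most clearly reduced. It had 124, 115, 125 and 142 with SOX11 siRNA, 189, 217, 216 and 195 with control siRNA and 187, 181, 185 and 183 in untreated cells (log2 fold change -0.63, standard error 0.0866, limma adjusted p = 0.00466). ZNF730, on chromosome 19, had 348, 301, 269 and 283 with SOX11 siRNA, 479, 543, 487 and 464 with control siRNA and 484, 558, 614 and 514 in untreated cells (log2 fold change -0.69, standard error 0.103, limma adjusted p = 0.0079). Neither gene's SOX11 siRNA arrays overlapped any other array. ZNF443, also on chromosome 19, had 54.8, 49.8, 38.4 and 41.7 with SOX11 siRNA and 75.2, 88.2, 80.5 and 74.7 with control siRNA (log2 fold change -0.63, standard error 0.0984, limma adjusted p = 0.0117), and it lost its call without control siRNA replicate 2 or 3 (limma adjusted p of up to 0.0625). ZNF713 was dim at 22.5, 20.4, 23.4 and 23.5 with SOX11 siRNA and 35.2, 37.8, 35.1 and 40.4 with control siRNA (log2 fold change -0.47, standard error 0.0821, limma adjusted p = 0.0283). ZSCAN2, whose SCAN domain pairs zinc finger proteins with each other, had 72.4, 68, 50.2 and 60.1 with SOX11 siRNA and 110.0, 100.3, 93.7 and 94.5 with control siRNA (log2 fold change -0.56, standard error 0.103, limma adjusted p = 0.04).

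The 14 further ZNF genes called lower with quantile normalization were ZNF3, ZNF84, ZNF106, ZNF117, ZNF184, ZNF195, ZNF253, ZNF254, ZNF566, ZNF618, ZNF627, ZNF711, ZNF737 and ZNF766. Their log2 fold changes there ran from -0.60 (ZNF618) to -0.36 (ZNF117). ZNF3, for example, had 412, 405, 321 and 344 with SOX11 siRNA and 485, 564, 514 and 459.8 with control siRNA, and ZNF84 had 253, 224, 195 and 230.5 with SOX11 siRNA and 295, 344, 319 and 269.9 with control siRNA. Of the 18 called genes 8 lie on chromosome 19 (44.4%), where 243 of the 510 probe sets lie (47.6%).

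The shift was not confined to the called genes. On the deposited values 65.1% of the ZNF probe sets were below 0, against 47.8% of all probe sets outside the 26 genes, and with quantile normalization 62.7% against 45.9%. Among protein-coding probe sets the shares were 44.0% and 43.3%. Between same-numbered arrays, with quantile normalization, the family's share below 0 was 46.5%, 57.1%, 67.6% and 63.9% for replicate numbers 1 to 4. All probe sets outside the 26 genes had 46.0%, 48.4%, 46.9% and 48.5%, so replicate number 1 showed hardly any shift. The median log2 fold change of the family was -0.0447 on the deposited values, -0.0372 with quantile normalization and -0.0223 with median centring, against 0.00615, 0.00983 and 0.0286 for all. All 4 SOX11 siRNA arrays lay below all 4 control siRNA arrays for 31 ZNF probe sets (6.08%) and above them for 1 (0.196%), where the whole array had 1.35% and 0.601% and protein-coding probe sets 1.55% and 0.675%. Against untreated cells, with quantile normalization, the family's median was -0.0269 for SOX11 siRNA and 0.0169 for control siRNA. All probe sets outside the 26 genes had 0.00481 and -0.00136. On the deposited values 72.2% of the family was below 0 for SOX11 siRNA over untreated cells, against 64.7% of all. For control siRNA over untreated cells it was 63.9%, against 67.9% of all.

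**Figure D4:**
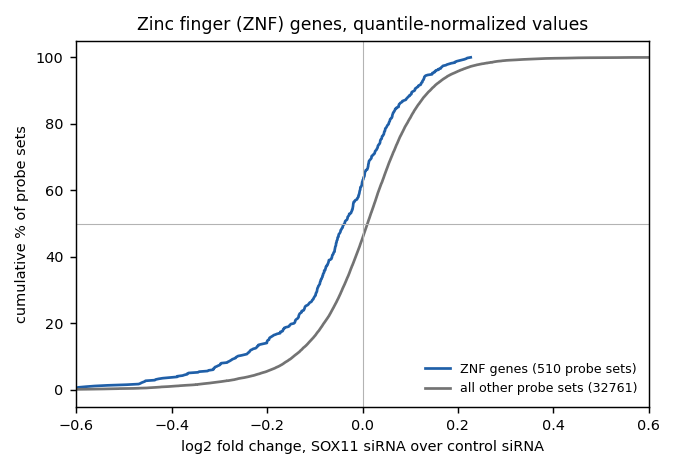
Cumulative share of probe sets (y axis, percent) by log2 fold change of SOX11 siRNA over control siRNA after quantile normalization (x axis, shown from -0.6 to 0.6). The curve of the 510 ZNF probe sets (blue) lies left of that of all other probe sets outside the 26 genes (grey), with 62.7% of the family below 0.

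Rises were few and small. The only probe set called higher on the deposited values, 8034304, lists no symbol. It had 978, 868, 815 and 838 with SOX11 siRNA, 617, 623, 588 and 513 with control siRNA and 590.3, 519, 495 and 526 in untreated cells (log2 fold change 0.57, standard error 0.0963, limma adjusted p = 0.0199). Its call was lost when replicate 1 or 2 of SOX11 siRNA or any 1 of the 4 control siRNA arrays was left out, with a limma adjusted p of up to 0.0808. With quantile normalization 18 named genes and 7 probe sets without a single symbol were called higher, none of them by 1.5-fold. PGM1, SCIMP and TRPV2 were called in each of the 12 fits without 1 array under quantile normalization, and 11 of the 18 in at most 6 of them.

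Several of the 18 genes are known from immune signalling. PTPN22, a phosphatase that damps antigen receptor signalling, had 159, 174, 134 and 187 with SOX11 siRNA, 101, 129, 92.1 and 102 with control siRNA and 98.8, 118, 121 and 109 in untreated cells (log2 fold change 0.56, standard error 0.0945, limma adjusted p = 0.0178 with quantile normalization). The SOX11 siRNA arrays were above all others. FCER2, the B cell surface protein CD23, had 1707, 1754, 1521 and 1698 with SOX11 siRNA, 1303, 1437, 1339 and 1267 with control siRNA and 1419, 1266, 1349 and 1390.0 in untreated cells (log2 fold change 0.28, standard error 0.0555, limma adjusted p = 0.0464 with quantile normalization), and its call held in 1 of 12 fits without 1 array. NEK7, a kinase that activates the NLRP3 inflammasome, had 354, 315, 261 and 317 with SOX11 siRNA, 244, 245, 249 and 210.1 with control siRNA and 207, 203, 208 and 173 in untreated cells (log2 fold change 0.36, standard error 0.0674, limma adjusted p = 0.0334 with quantile normalization). PECAM1, the adhesion molecule CD31, had 429, 438, 322 and 447 with SOX11 siRNA and 303, 349, 269 and 299 with control siRNA, with replicate 3 of SOX11 siRNA inside the range of control siRNA (log2 fold change 0.38, standard error 0.0717, limma adjusted p = 0.0353 with quantile normalization). DPP4, the surface peptidase CD26, was dim at 39.2, 41, 37.9 and 52.2 with SOX11 siRNA and 29.6, 26.9, 30.6 and 29.8 with control siRNA (log2 fold change 0.40, standard error 0.0667, limma adjusted p = 0.016 with quantile normalization). STX11, a membrane fusion protein of immune cells, and CD300A, an inhibitory receptor, had log2 fold changes of 0.38 and 0.33 with quantile normalization. The calls of NEK7, PECAM1 and STX11 each held in 2 of 12 fits without 1 array, and that of CD300A in 1. Those of PTPN22 and DPP4 each held in 8.

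Others encode channels, transporters and enzymes. TRPV2, a cation channel, had 152, 147, 115 and 148 with SOX11 siRNA, 101, 98.9, 98.2 and 86.3 with control siRNA and 93.6, 90.4, 103 and 97 in untreated cells (log2 fold change 0.48, standard error 0.0684, limma adjusted p = 0.00558 with quantile normalization). PGM1, which interconverts glucose phosphates, had 694, 659, 534 and 639 with SOX11 siRNA, 440.4, 506, 484 and 412 with control siRNA and 524, 476, 568 and 560.1 in untreated cells (log2 fold change 0.41, standard error 0.0559, limma adjusted p = 0.00451 with quantile normalization). Untreated cells lay between the siRNA groups for PGM1 and with control siRNA for TRPV2. KCNAB2, a potassium channel subunit, had a log2 fold change of 0.36 with quantile normalization. SLC37A2, a sugar phosphate transporter, and GNB5, a G protein subunit, had 0.34 and 0.36. The calls of KCNAB2, SLC37A2 and GNB5 held in 7, 4 and 3 of 12 fits without 1 array, and that of JAZF1 in 1. JAZF1, a zinc finger protein of the NuA4 acetyltransferase complex, had 484, 444, 401 and 501 with SOX11 siRNA and 355, 390.3, 389.6 and 307 with control siRNA (log2 fold change 0.31, standard error 0.061, limma adjusted p = 0.0404 with quantile normalization).

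For a part of the 18 genes the untreated cells were near the level of the cells given SOX11 siRNA. SCIMP, a transmembrane adaptor of antigen-presenting cells, had 528, 533, 406 and 487 with SOX11 siRNA, 329.9, 397, 375 and 311 with control siRNA and 478, 461, 473 and 469 in untreated cells (log2 fold change 0.42, standard error 0.0587, limma adjusted p = 0.0047 with quantile normalization). PTPMT1, a mitochondrial phosphatase of cardiolipin synthesis, had 611, 523, 531 and 552 with SOX11 siRNA, 425, 427, 428 and 335 with control siRNA and 573, 518, 537 and 519.7 in untreated cells (log2 fold change 0.42, standard error 0.0693, limma adjusted p = 0.0152 with quantile normalization). In both, the control siRNA arrays were the ones apart. With quantile normalization control siRNA was called lower than untreated cells for these 2 of the 18 genes, and higher for NEK7 and SLC37A2. For NEK7 and SLC37A2 the log2 fold change of control siRNA over untreated cells was 0.29 each (limma adjusted p = 0.0478 and 0.0399). In that comparison 292 probe sets of the whole array were called lower (0.877%) and 352 higher (1.06%). The untreated mean was nearer to SOX11 siRNA than to control siRNA for 5 of the 18, namely CD300A, IGSF6, PTPMT1, SCIMP and SLC50A1. Against untreated cells 12 of the 18 were called higher with SOX11 siRNA after quantile normalization, a comparison that shares its SOX11 siRNA arrays with the one above and called 1266 probe sets of the whole array higher (3.8%), TRPV2, PTPN22, FCER2, NEK7 and PGM1 among them.

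**Figure D5:**
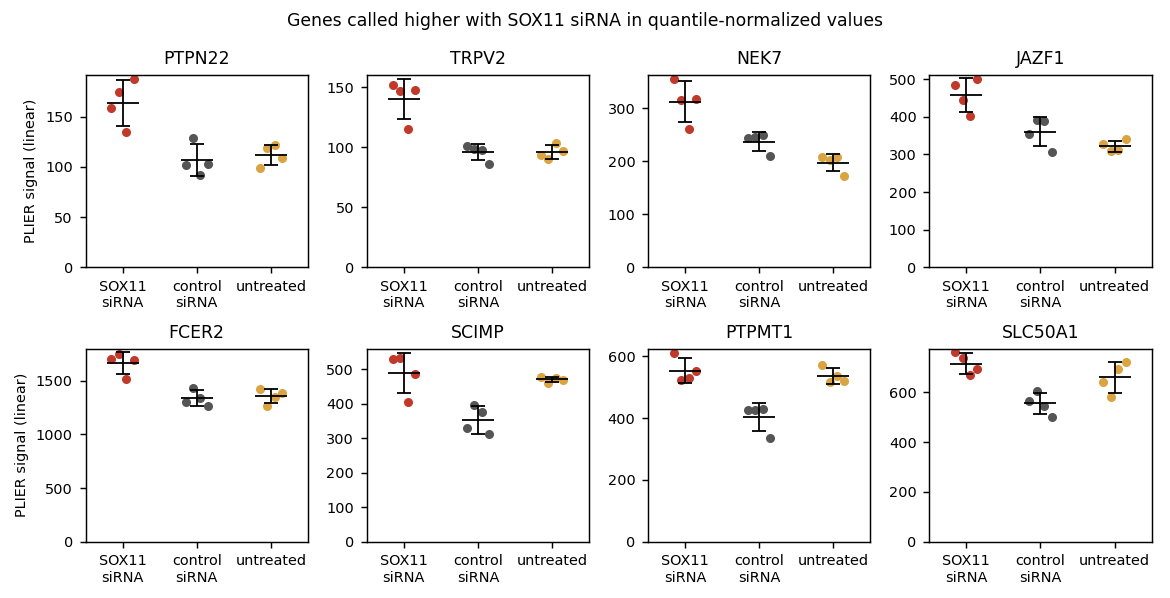
Points are the deposited PLIER signals (linear, from 0) of the 4 arrays per group for 8 of the genes called higher with quantile normalization, with SOX11 siRNA on the left, control siRNA in the middle and untreated cells on the right. Horizontal lines are means and bars 1 SD. For SCIMP, PTPMT1 and SLC50A1 the untreated cells are nearer to SOX11 siRNA, and for the others nearer to control siRNA.

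By fold change alone, among named genes whose siRNA groups did not overlap, the largest rises on the deposited values also included ZFP36, SERTAD3, PTGER2 and MOXD1. ZFP36, which marks AU-rich mRNAs for decay and is induced early after stimulation, had 164, 167, 133 and 157 with SOX11 siRNA, 107, 123, 89.8 and 124 with control siRNA and 85.3, 82.8, 86.2 and 89.8 in untreated cells (log2 fold change 0.44, standard error 0.104, limma adjusted p = 0.188). The untreated cells were the lowest group for it. SERTAD3, PTGER2 and MOXD1 had log2 fold changes of 0.44, 0.44 and 0.43, and none of the 4 was called with either scaling.

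Quantile normalization brought 148 named genes below the threshold downward. Of these, 61 were called in each of the 12 fits without 1 array and 63 in at most 6, and 126 were also called lower against untreated cells, a comparison on the same SOX11 siRNA arrays in which 1112 probe sets of the whole array (3.34%) were called lower. Those named here were picked after their values were seen, except where the rule for named genes gives them. CTXN1, the cortical membrane protein cortexin, had 146, 87.8, 62 and 154 with SOX11 siRNA and 190.3, 203, 191 and 188 with control siRNA (log2 fold change -0.75, standard error 0.153, limma adjusted p = 0.0479 with quantile normalization). The SOX11 siRNA arrays were widely spread, and the call held in 2 of 12 fits without 1 array. MDK, the growth factor midkine, had 384, 289, 230.2 and 383 with SOX11 siRNA and 481, 559.9, 517 and 449.7 with control siRNA (log2 fold change -0.66, standard error 0.0986, limma adjusted p = 0.00709 with quantile normalization). MLLT11 had 478, 443, 339 and 419 with SOX11 siRNA and 678, 711, 537 and 600.4 with control siRNA (log2 fold change -0.60, standard error 0.0756, limma adjusted p = 0.00274 with quantile normalization). NCS1, a neuronal calcium sensor, NETO2, an auxiliary subunit of kainate receptors, and FZD3, a Wnt receptor of axon guidance, had log2 fold changes of -0.59, -0.56 and -0.58. Their calls held in 6, 12 and 7 of 12 fits without 1 array under quantile normalization.

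Modifiers of chromatin were called as well. KDM1A, a histone demethylase that acts with corepressors, had 690.1, 696, 536 and 695 with SOX11 siRNA and 833, 955, 872 and 819.7 with control siRNA (log2 fold change -0.45, standard error 0.0618, limma adjusted p = 0.0046 with quantile normalization). DNMT3A, a DNA methyltransferase, had 239, 256, 193 and 266 with SOX11 siRNA and 319, 347, 315 and 305 with control siRNA (log2 fold change -0.42, standard error 0.06, limma adjusted p = 0.00501 with quantile normalization). KDM5B, a demethylase of histone H3, had 259.6, 277, 169 and 267 with SOX11 siRNA, 325, 402, 326 and 354 with control siRNA and 260.2, 283, 278 and 284 in untreated cells (log2 fold change -0.53, standard error 0.0953, limma adjusted p = 0.0242 with quantile normalization), so that the untreated cells lay closer to SOX11 siRNA. CBX1, a heterochromatin protein, and EZH2, the Polycomb methyltransferase, had log2 fold changes of -0.44 and -0.25, and the call of EZH2 was not made in any of the 12 fits without 1 array.

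Genes of B cell signalling and homing were among the brighter added calls. CXCR4, the receptor that guides B cells to bone marrow and lymph nodes, had 879.9, 782, 667 and 704 with SOX11 siRNA, 1000.1, 1151, 1058 and 892 with control siRNA and 1175, 1029, 1272 and 1157 in untreated cells. SOX11 siRNA lay below both other groups, and the fall was called with quantile normalization (log2 fold change -0.47, standard error 0.0616, limma adjusted p = 0.00353 with quantile normalization) but not on the deposited values (limma adjusted p = 0.27). MYB, a factor of blood progenitors, had 891, 835, 614 and 836 with SOX11 siRNA and 1025, 1148, 1047 and 998 with control siRNA (log2 fold change -0.45, standard error 0.0621, limma adjusted p = 0.00434 with quantile normalization). MYD88, the adaptor of Toll-like receptors, had 279, 229.6, 186 and 263 with SOX11 siRNA, 352, 353, 340.5 and 300.5 with control siRNA and 261, 282, 320.4 and 287 in untreated cells (log2 fold change -0.49, standard error 0.073, limma adjusted p = 0.00753 with quantile normalization), where the untreated range overlapped both others. PLCG1, a phospholipase of receptor signalling, had a log2 fold change of -0.40. CXCR4, MYB, MYD88 and PLCG1 were called in each of the 12 fits without 1 array under quantile normalization. IDH2, the mitochondrial isocitrate dehydrogenase, had 1057, 894, 730.5 and 809.9 with SOX11 siRNA and 1486, 1342, 1434 and 1062 with control siRNA (log2 fold change -0.64, standard error 0.0894, limma adjusted p = 0.00473 with quantile normalization).

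Microtubule and cilium genes included CEP41 and ATAT1, whose products take part in the modification of tubulin, KIF3C, a kinesin of neurons, and STMN1, which destabilizes microtubules. Their log2 fold changes with quantile normalization were -0.45, -0.40, -0.44 and -0.33. Under quantile normalization the call of CEP41 held in 12 of 12 fits without 1 array. Those of ATAT1 (its probe set with the smallest p), KIF3C and STMN1 held in 5, 3 and 2. The probe sets of ATAT1 and DDAH2 lie in the major histocompatibility region and recur with nearly equal values. TMSB10, which binds monomeric actin and was one of the brightest transcripts, had 5362, 5229, 4379 and 4457 with SOX11 siRNA and 5884, 6529, 5691 and 5498 with control siRNA (log2 fold change -0.35, standard error 0.053, limma adjusted p = 0.00874 with quantile normalization).

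Gene lists of pathways showed few members past the threshold, against 0.141% of all genes called lower on the deposited values and 2.58% lower and 1.74% higher at an unadjusted p under 0.05. With lists of this size a single member is already several percent. Of 28 pathway lists, 5 held a gene called on the deposited values, all of them lower. These genes were TEAD2, BCL6, DDAH2 and BDH2, with TEAD2 and BCL6 each counted in 2 lists. The lists were chosen with earlier results of these data known, so their counts are a description. The genes linked to SOX11 in other work held 2 of 12 (TEAD2 and BCL6), and with quantile normalization CXCR4 as a further one. PAX5, the B lineage factor described as a target of SOX11 in MCL, had 785, 885, 583 and 865 with SOX11 siRNA and 835, 939, 820.2 and 825 with control siRNA (log2 fold change -0.15, standard error 0.117, limma adjusted p = 1), and PTK2, the focal adhesion kinase, was dim and not called (log2 fold change 0.02, standard error 0.094, limma adjusted p = 1). The list's median log2 fold change was -0.0963. Among 27 measured B cell receptor and lineage genes BCL6 was called lower, FCER2 was called higher with quantile normalization, and the median was 0.0298. CCND1, the cyclin D1 gene that the translocation of MCL activates, was at 3614, 3351, 2928 and 2958 with SOX11 siRNA and 3443, 3373, 3385 and 2935 with control siRNA (log2 fold change -0.03, standard error 0.095, limma adjusted p = 1).

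Differentiation, cell cycle and adhesion lists had no member called on the deposited values. Of 16 plasma cell differentiation genes 1 was lower and 1 higher at an unadjusted p under 0.05 in limma, TNFRSF17 at a log2 fold change of -0.33 and SLAMF7 at 0.25. The G1/S and DNA replication list (29 measured, 0 lower and 1 higher at an unadjusted p under 0.05) had its smallest p values at CCND3 (0.26) and ORC1 (-0.18), and the G2/M and mitosis list (26 measured, 2 lower and 0 higher) at CENPF (-0.29) and KIF20A (-0.22). The homing and adhesion list (24 measured) held 2 lower and 2 higher at that level, CXCR4 and PECAM1 among them. The actin list (35 measured, 2 lower and 1 higher) was led by TMSB10 and FSCN1 (-0.31), the tubulin and microtubule list (26 measured, 2 lower and 0 higher) by MAP1B (-0.43) and STMN1, and the Wnt list (27 measured, 4 lower and 0 higher) by FZD3 and FZD2 (-0.29). Neuronal genes (27 measured) had 0 in either direction, with SYN1 at 0.20 and POU4F1 at -0.17.

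Stress and survival lists held no call on the deposited values either. The apoptosis list (24 measured, 1 lower and 1 higher at an unadjusted p under 0.05) was led by CASP2 (-0.24), which was called lower with quantile normalization, and BIK (0.29). The call of CASP2 held in 1 of 12 fits without 1 array under quantile normalization. The p53 targets (21 measured, 0 in either direction) had the highest list median, 0.104, with PLK3 at 0.19 and POLH at 0.19. The interferon list (30 measured, 2 lower and 0 higher) had USP18 at -0.34 and IFI44 at -0.23. Heat shock genes (21 measured), the unfolded protein response (24), NF-kB targets (24) and DNA damage and repair genes (27) each had 0 members in either direction at that level, their smallest p values falling on HSPB1 (0.23) and HSPE1 (0.18), EDEM1 (0.16) and SEL1L (0.16), CCL4 (0.24) and CD83 (0.18), and CHEK2 (0.18) and LIG4 (-0.16). Immediate early genes (30 measured, 0 lower and 1 higher) were led by ZFP36 and JUND (0.22). In the mRNA decay list (24 measured, 1 lower and 2 higher) CNOT8, a deadenylase subunit of the CCR4-NOT complex, was called lower with quantile normalization (log2 fold change -0.43).

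The lists of general metabolism and antigen presentation had no called member with either scaling. Hypoxia and glycolysis (27 measured, 0 lower and 1 higher at an unadjusted p under 0.05) were led by PFKP (0.26) and SLC2A3 (0.18), sterol and fatty acid synthesis (24 measured, 0 in either direction) by SCD (-0.21) and FADS1 (0.12), oxidative phosphorylation (23 measured, 1 lower and 0 higher) by UQCRC1 (-0.37) and ATP5F1C (0.16), cytosolic ribosomal proteins (21 measured, 0 in either direction) by RPL7 (0.11) and RPS6 (0.12), and antigen presentation (14 measured, 1 lower and 0 higher) by HLA-DOB (-0.32) and NLRC5 (-0.17). In the arginine list PRMT3 followed DDAH2 (0.19), and in the SOX family (18 measured, 0 in either direction) SOX8 (0.18) and SOX17 (0.14) had the smallest p values. Among markers of other cell types, VCAN, a matrix proteoglycan of myeloid and stromal cells, was called lower with quantile normalization (log2 fold change -0.34), a call that held in 2 of 12 fits without 1 array. The myeloid list had 2 lower and 2 higher members at an unadjusted p under 0.05 on the deposited values, CD68 among the higher ones (log2 fold change 0.41), and the summed signal of the 13 measured myeloid markers was 874 to 1240 with SOX11 siRNA and 957 to 1118 with control siRNA. None of 16 T and NK cell, 9 epithelial, 6 erythroid and platelet and 7 B lineage markers was called with either scaling, and of 13 fibroblast and endothelial markers only PECAM1 was, higher, with quantile normalization.

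Non-coding RNA genes gave almost no calls, but their probe sets are few. Over all probe sets outside the 26 genes limma called 0.105% on the deposited values and 0.598% with quantile normalization. On the deposited values families of this size are too small to be set apart from that share. None of 173 probe sets of microRNA genes was called with either scaling, with 2 lower and 0 higher at an unadjusted p under 0.05 on the deposited values. None of 178 small nucleolar RNA probe sets was called, with 1 lower and 0 higher at that level. Over all probe sets outside the 26 genes that level gave 2.69% lower and 1.49% higher. Of 690 long non-coding RNA probe sets 0 were called on the deposited values and 1, higher, with quantile normalization. The median control siRNA signal was 23.0 for microRNA probe sets, against 140 for those of protein-coding genes. Of 12081 probe sets with no symbol 5 were called lower on the deposited values (0.0414%), against 0.102% of all probe sets outside the 26 genes. Among them were 8131867, with 89.3, 77.7, 53.6 and 68.5 with SOX11 siRNA and 146, 178, 139.5 and 114 with control siRNA (log2 fold change -0.87, standard error 0.135, limma adjusted p = 0.0117), and 8121212, with 34, 33.7, 27 and 61.2 with SOX11 siRNA and 88.6, 124, 90.00 and 69.97 with control siRNA (log2 fold change -1.01, standard error 0.168, limma adjusted p = 0.0177). Both were picked after their values were seen, and 8121212 had the deepest called fall outside the 26 genes.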

How the data were processed

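RNA from 12 cultures of Granta 519 was hybridized to Affymetrix Human Gene ST arrays. The authors deposited linear intensities, computed per probe set with PLIER in Affymetrix Expression Console 1.1 with a background from probes of matched GC content and global median normalization, although the deposited array medians still differ. A second deposited table held the same intensities, and 12 deposited columns of means, fold changes and p-values were not used. The sources used here name no genome build for the probe sets. Symbols came from the platform annotation. Of 19460 probe sets with 1 symbol, 19429 were found by gene ID in the current table, with 0 symbols changed. Promoters came from RefSeq (GRCh38.p14).

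Intensities were taken as log2(value + 16). The 3 groups were fitted together with limma 3.58.1 in R 4.3.3, p-values were adjusted by Benjamini-Hochberg over all 33297 probe sets, and an adjusted p under 0.05 was a call. Named were all genes called, the 10 largest rises and falls without overlap between siRNA groups, up to 12 genes called higher with quantile normalization, 2 genes per pathway list by smallest p, and a few by name. Further genes were picked after their values were seen, as were the ZNF family and the calls with quantile normalization that the rule does not give. The members and the 34 gene lists were chosen with earlier results of these data known. The alternatives were quantile normalization, median centring, a pseudocount of 1, filters, other fits, a replicate block and leaving out each array. Tested on simulated data for SOX11 siRNA against control siRNA on 33297 probe sets, the fit recovered 76.1% of 67 changes of 1.5-fold. It recovered 100% of 67 changes of 2-fold and 100% of 66 changes of 4-fold, with 11 false calls and 0 in the wrong direction. The simulation drew independent normal noise per probe set, without differences between whole arrays. It placed the changes only in probe sets at or above the median mean signal. Recovery in dimmer probe sets or on uneven arrays was not tested.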

Additional observations from a re-analysis of the deposited data

Results flagged for a closer look

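In 26 of 423 sets of 4 arrays (141 genes in 3 groups), 1 array stood far from the other 3, and chance alone sets about 1 in 20 such groups apart. The values are deposited signals.

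SOX11 siRNA replicate 3, the array with the lowest median, was the low one for 7 genes. PECAM1 read 322 there against 429 to 447 on the other 3 SOX11 siRNA arrays, TRPV2 read 115 against 147 to 152, and KDM5B read 169 against 260 to 277. KDM1A read 536 against 690.0 to 696, FZD3 read 43.7 against 65.5 to 67.5, NF2 read 238 against 327 to 336, and ZNF195 read 201 against 258 to 263. For the 5 of these genes that were called lower with quantile normalization, the low array lies in the direction of the fall, and for TRPV2 and PECAM1 it lies against the rise. In SOX11 siRNA replicate 1, STMN1 read 1660 against 1279 to 1340. In SOX11 siRNA replicate 4, F2R read 107 against 75.8 to 76.8 and TEAD4 read 115 against 129 to 131.

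Control siRNA replicate 2 was the high one for 7 genes. JUP read 172 against 160.0 to 161, FGD6 read 44.7 against 35.5 to 35.9, CEP41 read 408 against 340.0 to 347, and PAX5 read 939 against 820.0 to 835. JUND read 335 against 294 to 301, SEL1L read 1222 against 970.0 to 976, and SLC2A3 read 588 against 501 to 515. Without this array the number of calls was 8. Control siRNA replicate 4 was low for NEK7 (210.0 against 244 to 249), PTPMT1 (335 against 425 to 428) and CCND1 (2935 against 3373 to 3443).

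Among untreated cells, NEK7 read 173 in replicate 4 against 203 to 208, MDK read 430.0 in replicate 3 against 506 to 511, CEP41 read 407 in replicate 3 against 373 to 378, and CD83 read 504 in replicate 3 against 451 to 460.0. IDH2 read 1746 in replicate 1 against 1532 to 1552, and UQCRC1 read 772 in replicate 1 against 683 to 687.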

How the results depend on the processing

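More calls were lower than higher in every setting with a call, while their number varied widely, and the cause was not tested except where named. Against 35 calls on the deposited values (34 lower, 1 higher), limma gave 199 (174, 25) with quantile normalization, 56 (51, 5) after median centring, 53 (48, 5) without dim probe sets, 71 (68, 3) over probe sets with 1 symbol, where fewer were tested, 39 (38, 1) with a trended and robust prior, 24 (22, 2) with array weights, 15 (15, 0) with log2(signal + 1) and 7 (7, 0) on the 8 siRNA arrays alone, where fewer arrays estimate the spread. At an unadjusted p under 0.05, log2(signal + 1) gave 919 lower and 496 higher and the 8 siRNA arrays 800 lower and 345 higher. An unmoderated analysis of variance was run on the deposited values, not on the RMA values of the study's methods. Its contrast of the siRNA groups gave 9 (9, 0) with the spread taken over 3 groups. There it counted 811 lower and 616 higher at an unadjusted p under 0.05. Over the 2 siRNA groups it gave 0. Leaving out 1 array gave 8 to 44 calls, 8 to 43 lower and 0 to 3 higher, lowest without control siRNA replicate 2 and highest without SOX11 siRNA replicate 4. With quantile normalization, a setting added after seeing the data, leaving out 1 array gave 91 to 176 calls, 81 to 155 lower and 6 to 21 higher. Same-numbered SOX11 siRNA and control siRNA arrays deviated from their group means with correlations of 0.133, 0.0433, 0.286 and 0.332. For control siRNA and untreated arrays they were 0.444, -0.315, 0.0905 and 0.207. No correlations of differently numbered arrays were computed, so these values cannot decide whether the numbers mark pairs. The main fit did not take them as pairs. With the replicate number as a block limma called 25 probe sets (24 lower, 1 higher), and with quantile normalization added to the block 148 (131, 17).

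Of 3362 pairs of a named gene and a setting, 2915 kept direction and side of the threshold, 278 lost the call, 148 gained it and 21 changed sign. All sign changes were in uncalled genes near 0. Over the fits without 1 array the log2 fold change ran from -0.15 to 0.03 for TEAD1, -0.25 to 0.04 for TEAD3, -0.03 to 0.05 for TEAD4, -0.1 to 0.07 for BDH1, -0.06 to 0.06 for DDAH1, -0.09 to 0.01 for CCND1 and -0.03 to 0.09 for PTK2. DDAH1 was at -0.03 with array weights, -0.01 with quantile normalization and -0.01 with quantile normalization plus the replicate block. In the dimmest of the 4 signal classes (mean signal up to 25.6) 0 calls were made on the deposited values, and 4 arrays per group limit the precision elsewhere.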
